A study of Mus musculus with 4 samples.

Results

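The circadian clock genes Per1, Per2, Per3, Cry1, Cry2, Nr1d1, Nr1d2, Dbp, Arntl (also called Bmal1) and Bhlhe40 were followed in IMS32 cells, a line of mouse Schwann cells that became immortal spontaneously in culture and so represents 1 line rather than primary glia. These 10 genes are a chosen list of core and output genes of the clock, and were found by the gene name that the array design gives each probe, which gave 13 of the 39429 mouse transcript probes and 10 of the 31093 gene names on the array. The cells were kept for 1 h in DMEM with 5% FBS that held 5 mM glucose and 1 mM pyruvate [Glc 5 mM/Pyr (+)], 5 mM glucose and no added pyruvate [Glc 5 mM/Pyr (−)], 15 mM glucose and 1 mM pyruvate [Glc 15 mM/Pyr (+)], or 15 mM glucose and no added pyruvate [Glc 15 mM/Pyr (−)]. Each of the 4 conditions was measured on 1 one-colour Agilent array, so no difference has a replicate, and no test was run. A time of day, or a step that synchronized the cultures, is not given in the sources used here.

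The mammalian clock is a transcriptional feedback loop. Arntl pairs with Clock on E-box sequences and drives the Per and Cry genes, whose proteins return to the nucleus and repress that pair, while Nr1d1 and Nr1d2 repress Arntl through ROR elements and Dbp acts on D-boxes as an output. Per1, Per2 and Bhlhe40 also respond within hours to signals from outside the cell, such as serum, glucocorticoids and cAMP, and Schwann cells, like most cells, carry the loop.

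RefSeq promoter windows (GRCm38.p6) were found for 8 of the 10 genes. The 250 bases before the transcription start were searched on both strands for the E-box CACGTG, its variant CACGTT, the D-box TTATGNAA, the ROR element core TNGGTCA and the cAMP response element TGACGTCA. The E-box was present before Per1 and Cry1, that is 2 of 8 genes, against 6.02% of 32817 windows of that length. The 8 genes had 10 windows, and a gene counted when any of its windows matched, so the share of windows is not a like measure. The second Per1 window held neither an E-box nor a D-box. The D-box was present before Per1 and, as 2 copies, before Per3, against 3.07% of all windows. The variant E-box was found before Cry1, Cry2 and Nr1d1 (3.85% of all windows) and the ROR core before Arntl, Cry2 and Per3 (9.19%), while TGACGTCA was in none of the 8 (1.55%). The windows of the 3 genes with an E-box or D-box are shown 5′ to 3′ on the gene's strand. Those matches are in capitals, because factors of the loop described above act on such elements. Per1 lies at chr11:69098699-69098948 (+, the first of its 2 listed starts), Per3 at chr4:151044666-151044915 (−) and Cry1 at chr10:85185055-85185304 (−).
Per1: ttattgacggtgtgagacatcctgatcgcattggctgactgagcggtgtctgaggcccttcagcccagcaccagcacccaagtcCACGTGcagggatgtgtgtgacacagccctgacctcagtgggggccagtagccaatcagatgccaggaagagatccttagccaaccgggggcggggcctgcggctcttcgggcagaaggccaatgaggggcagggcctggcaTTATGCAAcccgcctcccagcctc
Per3: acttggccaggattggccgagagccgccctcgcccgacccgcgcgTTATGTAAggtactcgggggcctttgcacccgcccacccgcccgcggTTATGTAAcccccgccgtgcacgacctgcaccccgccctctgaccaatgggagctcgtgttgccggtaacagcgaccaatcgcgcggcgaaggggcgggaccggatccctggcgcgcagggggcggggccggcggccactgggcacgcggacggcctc
Cry1: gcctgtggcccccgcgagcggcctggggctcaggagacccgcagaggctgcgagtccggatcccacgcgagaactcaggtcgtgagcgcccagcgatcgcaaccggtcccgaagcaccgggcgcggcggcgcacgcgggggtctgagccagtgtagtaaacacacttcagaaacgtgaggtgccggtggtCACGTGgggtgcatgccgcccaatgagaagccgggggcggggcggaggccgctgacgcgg
In Per1 the E-box begins 166 bases and the D-box 24 bases before the start, in Per3 the D-boxes begin 205 and 158 bases before it, and in Cry1 the E-box begins 60 bases before it. No 2 of these capital matches overlap. A match is a stretch of letters and not a measured binding site, and a window without a match says nothing about the factor.

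The 10 clock genes were all measurable in the 4 media. For pyruvate at 5 and 15 mM glucose their median absolute log2 difference was 0.15 and 0.16, beside 0.09 and 0.13 over all genes. For glucose with and without pyruvate it was 0.17 and 0.17, beside 0.11 and 0.15. All 13 probes were well above background on all 4 arrays, as were 27589 of the 39429 mouse probes. No clock probe reached a 2-fold difference in any comparison. The widest range over the 4 arrays was that of Per3 (1.59-fold), followed for single-probe genes by Bhlhe40 (1.46-fold) and Per2 (1.35-fold). Per1, Per2, Per3, Cry2, Nr1d1, Nr1d2 and Bhlhe40 each had a probe whose lowest value was on the [Glc 15 mM/Pyr (−)] array, whereas Dbp was highest there by both its probes. Intensities are given below as the scanner software's background-corrected values, whose 75th percentile over all mouse probes was 1788, 1740, 1597 and 1632. These and all later series of 4 values follow the order in which the media were named. Differences are log2 differences after each array was divided by its own percentile, so that they can differ from the ratio of the printed intensities.

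Measures of spread other than replicates were at hand. The median SD between the spots of a probe printed 10 times on an array was 0.07 log2 on each array. The software's own error of a spot, carried into a difference, was 0.20 log2 for the bright clock probes and up to 0.28 log2 for the dimmest one. All probes were also split by signal into bright, middle and dim classes of equal size, and the SD of a difference was taken over each class. For pyruvate at 5 and at 15 mM glucose it was 0.10 and 0.17 log2 in the bright class, 0.15 and 0.29 in the middle class, and 0.34 and 0.44 in the dim class. For 15 against 5 mM glucose it was 0.12, 0.16 and 0.35 with pyruvate and 0.18, 0.30 and 0.45 without, from the bright to the dim class. Both comparisons that use the [Glc 15 mM/Pyr (−)] array thus had the wider spread in every class. The class SD is a spread over different genes, any responses to the medium included, and not the error of a difference. The number of arrays limits the precision of every value, and these measures leave out the spread between cultures.

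**Figure D1:**
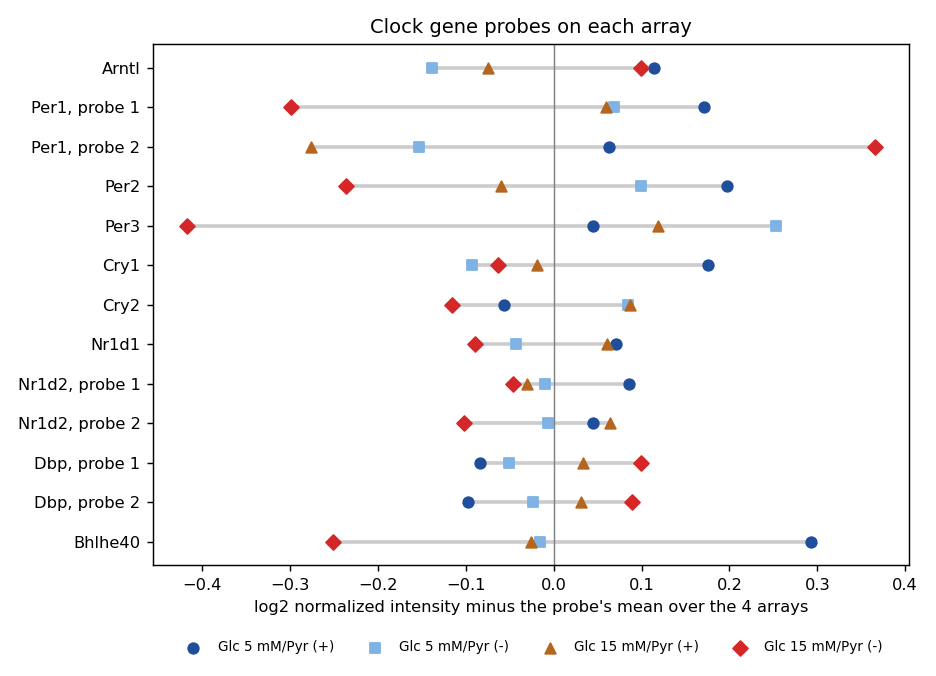
Log2 normalized intensity of each clock gene probe on the 4 arrays, minus that probe's mean over the arrays (x axis); each symbol is 1 array and each grey line spans the lowest to the highest. Per3 has the widest line (0.67 log2), and the 2 probes of Per1 place the [Glc 15 mM/Pyr (−)] array at opposite ends.

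Arntl, the activator of the loop, read 1434, 1171, 1124 and 1296 (probe A_55_P2408588, mm9 chr7:120457261-120457320). It was lower without pyruvate at 5 mM glucose (log2 difference −0.25) and higher without pyruvate at 15 mM glucose (0.17). Neither exceeded 2 SD of probes of like signal (1.73 and 0.61 SD), and the second lay within the software's error of 0.20. The 2 arrays with one change from the [Glc 5 mM/Pyr (+)] medium were the low ones for Arntl, and the arrays with neither or both changes were the high ones. For glucose, the differences were −0.19 with pyruvate and 0.24 without.

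Per1, a repressor of the loop that outside signals induce rapidly, has 2 probes that went opposite ways on one array. The brighter probe (A_55_P1970033, designed to NM_011065, mm9 chr11:68923364-68923423) read 4005, 3630, 3311 and 2638, the lowest value being without pyruvate at 15 mM glucose. On removal of pyruvate its log2 difference was −0.10 in 5 mM and −0.36 in 15 mM glucose, the latter 1.28-fold lower. For 15 against 5 mM glucose it was −0.11 with pyruvate and −0.37 without. The differences of −0.36 and −0.37 were 2.14 and 2.02 times the SD of probes of like signal and stood outside the software's error. A small tail of all bright probes lay below −0.34 and −0.38 in these comparisons, close to the Per1 values. Both differences use the [Glc 15 mM/Pyr (−)] array, so they are not independent.

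The second Per1 probe (A_55_P2019327, mm9 chr11:68919895-68919954) was designed to the embryonic cDNA AK081813 and was the dimmest of the 13. It read 37.7, 31.6, 26.6 and 42.4, so that [Glc 15 mM/Pyr (−)] was its highest array. Its log2 differences were −0.22 and 0.64 for pyruvate at 5 and 15 mM glucose, and −0.34 and 0.52 for glucose with and without pyruvate. None of these exceeded 2 SD of probes of like signal, the difference of 0.64 being 1.44 SD. The mean of both probes, 0.14 for pyruvate at 15 mM glucose, therefore represents neither, and whether the probes report different transcripts of Per1 was not tested.

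Per2, the partner of Per1 in the repressor complex, read 193, 175, 144 and 130 (A_51_P282760, mm9 chr1:93313046-93313105). Its values fall in the same array order as those of the brighter Per1 probe. The log2 differences were −0.10 and −0.18 for pyruvate at 5 and 15 mM glucose and −0.26 and −0.34 for glucose with and without pyruvate. All 4 were below 0, and the farthest from 0 in units of SD was the glucose difference with pyruvate, at 1.64 SD.

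Per3, a Period gene that is dispensable for the rhythm itself, read 101, 113, 94.8 and 66.8 (A_51_P258493, mm9 chr4:150379256-150379315). Its value on the [Glc 15 mM/Pyr (−)] array stood apart below the other 3. Without pyruvate it was 1.45-fold lower at 15 mM glucose (log2 difference −0.53) and not lower at 5 mM glucose (0.21). Its glucose difference without pyruvate, −0.67 or 1.59-fold, was the largest of any clock probe in any comparison, and with pyruvate it was 0.07. As a dim probe Per3 lies where probes vary most, and its largest difference of −0.67 was 1.49 SD of probes of like signal.

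The Cryptochromes, which carry the repression of the Clock and Arntl pair, had different profiles over the arrays. Cry1 read 114, 92.3, 89.2 and 88.3 (A_52_P420500, mm9 chr10:84594731-84594790), with [Glc 5 mM/Pyr (+)] above the other 3. Its differences were −0.27 and −0.04 for pyruvate at 5 and 15 mM glucose and −0.19 and 0.03 for glucose with and without pyruvate, none beyond 1 SD. Cry2 read 5961, 6395, 5882 and 5219 (A_55_P2016540, mm9 chr2:92243807-92243866), lowest in [Glc 15 mM/Pyr (−)]. Its differences were 0.14 and −0.20 for pyruvate and 0.14 and −0.20 for glucose in the same order, each between 1 and 1.5 SD of bright probes. All 4 lay within the software's error of 0.20, and the change of sign between the glucose concentrations was not tested.

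Nr1d1 and Nr1d2, the nuclear receptors also called Rev-erb alpha and beta that repress Arntl, had the narrowest ranges of the clock genes, at most 1.12-fold. Nr1d1 read 1338, 1204, 1188 and 1093 (A_51_P223776, to which the files give no position), with differences of −0.11, −0.15, −0.01 and −0.05 for pyruvate at 5 mM, pyruvate at 15 mM, glucose with pyruvate and glucose without it. Nr1d1 overlaps Thra in the RefSeq table. Nr1d2 read 4752, 4328, 3920 and 3960 by its probe on chromosome 14 (A_52_P303891, mm9 chr14:19037253-19037312), with differences of −0.10, −0.02, −0.12 and −0.04. A second probe named Nr1d2, designed to BC096461, is placed by the files on chromosome 19 (A_55_P2148534, mm9 chr19:40271435-40271494) and not on the gene's own. It read 8935, 8394, 8089 and 7366, with differences of −0.05, −0.17, 0.02 and −0.10, so no probe of either receptor reached 1.5-fold.

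Dbp, a PAR bZIP factor that the Clock and Arntl pair drives and that rises and falls strongly in many tissues, was measured by 2 probes that lie close together in the gene. A_55_P2032081 (mm9 chr7:52965322-52965381) read 16713, 16639, 16199 and 17319, and A_55_P2032079 (mm9 chr7:52965461-52965520) read 15826, 16213, 15454 and 16434. By the first probe the differences were 0.03 and 0.07 for pyruvate and 0.12 and 0.15 for glucose. By the second they were 0.07, 0.06, 0.13 and 0.11. Both probes gave the same array order after scaling and all 8 differences were above 0, yet all lay within the software's error. With spike-in scaling in place of the percentile, the Dbp mean was below 0 in 3 of the 4 comparisons (−0.12, −0.18 and −0.02, against 0.04 for pyruvate at 15 mM glucose).

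Bhlhe40, also called Dec1, competes for E-boxes and is induced by serum and hypoxia. It read 2742, 2156, 1965 and 1717 (A_51_P272553, mm9 chr6:108616309-108616368), highest in [Glc 5 mM/Pyr (+)] and lowest in [Glc 15 mM/Pyr (−)]. Its log2 differences were −0.31 and −0.23 for pyruvate at 5 and 15 mM glucose and −0.32 and −0.24 for glucose with and without pyruvate. Each of the 4 exceeded the software's error of 0.20. The difference for pyruvate at 5 mM glucose was 3.24 SD of bright probes and that for glucose with pyruvate was 2.75 SD. Both of these differences use the [Glc 5 mM/Pyr (+)] array, so they are not independent. Bhlhe40 was thus the 1 clock gene beyond 2 SD in either of the comparisons without the [Glc 15 mM/Pyr (−)] array. In each of the 4 comparisons 1 of 13 clock probes was beyond 2 SD. The share of all probes beyond 2 SD is not given here, so nothing particular about the clock genes follows from these counts.

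**Figure D2:**
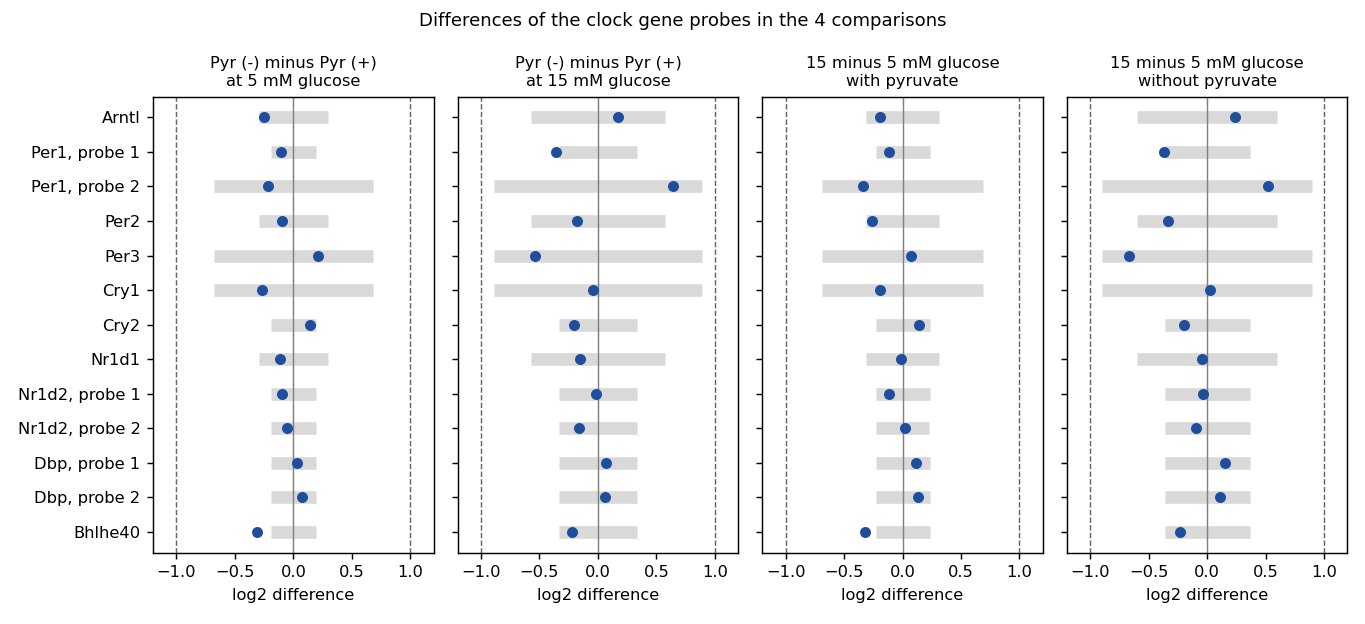
Log2 difference of each clock gene probe (points) in the 4 comparisons; grey bars span 2 SD either side of 0, with the SD taken over all probes of the same signal class, and dashed lines mark 2-fold. Bhlhe40 lies outside its bar in both panels without the [Glc 15 mM/Pyr (−)] array and Per1, probe 1, in both that use it, and no point reaches 2-fold. The share of all probes outside such bars is not given here.

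The counts over the clock probes are given beside those over all probes. On removal of pyruvate, 0 of 13 probes were past 2-fold at 5 mM glucose (1.17% of all 29088 probes measured on both arrays) and 0 at 15 mM glucose (2.1% of 27783). For 15 against 5 mM glucose, 0 of 13 were past 2-fold with pyruvate (0.968% of 28215) and 0 without it (2.4% of 28208). At such low shares a count of 0 of 13 says nothing particular about the clock genes. At 1.5-fold the counts were 0 (3.2% of all probes) and 1, the dim Per1 probe (6.54%), for pyruvate at 5 and 15 mM glucose, and 0 (3.12%) and 1, Per3 (7.28%), for glucose with and without pyruvate.

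The direction was below 0 for 9 of 13 clock probes on removal of pyruvate at 5 mM glucose (55.5% of all probes) and for 9 of 13 at 15 mM glucose (44.1%). With more glucose, 8 of 13 were below 0 with pyruvate (54.2%) and 8 of 13 without it (44.2%). Over genes, the median difference was −0.11 for pyruvate at 5 mM and −0.12 at 15 mM glucose, beside −0.02 and 0.03 over all genes. For glucose it was −0.12 with and −0.06 without pyruvate, beside −0.02 and 0.03. These medians are of the order of the spread between spots on an array, Dbp was above 0 and Arntl on both sides of it, and no direction of the group is drawn from them.

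Of the 13 probes, 8 had their lowest value after scaling on the [Glc 15 mM/Pyr (−)] array, against 30.7% of all 27589 probes measured on every array, and 7 had their highest on [Glc 5 mM/Pyr (+)], against 29.6%. The 8 include the probe named Nr1d2 that is placed on chromosome 19. They also include the Nr1d2 probe on chromosome 14, which was only 0.02 log2 lower there than on [Glc 15 mM/Pyr (+)]. Before scaling, that probe was lower on [Glc 15 mM/Pyr (+)] (3920 against 3960). The [Glc 15 mM/Pyr (−)] array was the highest for 3 of 13, namely both Dbp probes and the dim Per1 probe, against 38.0% of all probes. Probes of one gene are not independent, the 4 comparisons share arrays, and with 1 array per condition an effect of the medium and of that array cannot be told apart. In a bulk culture, less RNA per cell and fewer cells that express a gene cannot be told apart either.

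The wider clock machinery was followed in 30 further genes, among them Clock, the Ror receptors, the casein kinases that mark Per proteins, the F-box proteins that destroy Per and Cry, and AMP-activated kinase. All 30 were on the array and 28 to 29 were measured on both arrays of a comparison, Noct in none and Npas2 in 1. The files place the Ciart probe, the Noct probe and 1 Csnk2a1 probe away from the chromosome of the gene. None was past 2-fold in any of the 4 comparisons, where 1.18%, 2.16%, 1.00% and 2.45% of all genes measured were, in the order pyruvate at 5 mM, pyruvate at 15 mM, glucose with pyruvate and glucose without it. At such shares a count of 0 among these genes is unremarkable. The medians were −0.03 and −0.05 for pyruvate at 5 and 15 mM glucose and 0.00 and −0.01 for glucose with and without pyruvate, with 12, 13, 14 and 13 genes above 0, as were 43.9%, 56.9%, 44.4% and 56.2% of all genes in the same order. Nfil3, a bZIP repressor that opposes Dbp at D-boxes, had the largest difference in both comparisons that use the [Glc 15 mM/Pyr (−)] array. It read 948, 1115, 924 and 1425, with a difference of 0.60, or 1.51-fold, on removal of pyruvate at 15 mM glucose, and of 0.45 for glucose without pyruvate. Hlf, a relative of Dbp, had the largest in the other comparisons, −0.35 (pyruvate at 5 mM glucose) and −0.66 (glucose with pyruvate). Its probe was dim (28.2, 21.5, 15.9 and 21.6).

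A second list held 16 genes that serum, cAMP or glucocorticoids are known to induce as they do Per1, and 15 of them were measured, all but Nr4a3. On removal of pyruvate at 15 mM glucose, 3 of these 15 were at least 2-fold higher and none lower (0.992% of all 21885 genes measured were higher by as much), and for glucose without pyruvate 4 were at least 2-fold higher and none lower (0.971% of 22239). The list's medians were 0.22 and 0.37 in these comparisons, beside 0.03 over all genes in each. None passed 2-fold in the other comparisons, whose medians were −0.17 (pyruvate at 5 mM glucose) and −0.10 (glucose with pyruvate). Some of these genes were already known from earlier work on these arrays to be high on the [Glc 15 mM/Pyr (−)] array, so their direction is not independent evidence.

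Fos, an immediate-early subunit of AP-1, read 1070, 782, 623 and 3980. Its difference for pyruvate at 15 mM glucose was 2.65 (6.26-fold) and that for glucose without pyruvate 2.44. Dusp1, a phosphatase that turns off MAP kinases, read 528, 529, 420 and 1533 (1.84 and 1.63 in the same comparisons). Btg2, an antiproliferative early gene, read 861, 1011, 804 and 2247 (1.45 and 1.24). Ier2 read 372, 308, 309 and 630, just under 2-fold in the first comparison (1.99-fold) and past it in the second (2.18-fold). All 4 genes were highest on the [Glc 15 mM/Pyr (−)] array. They were named for passing 2-fold in comparisons that use it, so this follows largely from their choice. On that array 8 of 13 clock probes were lowest and 3 were highest, against 30.7% and 38.0% of all probes. A link between the lists was not tested.

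**Figure D3:**
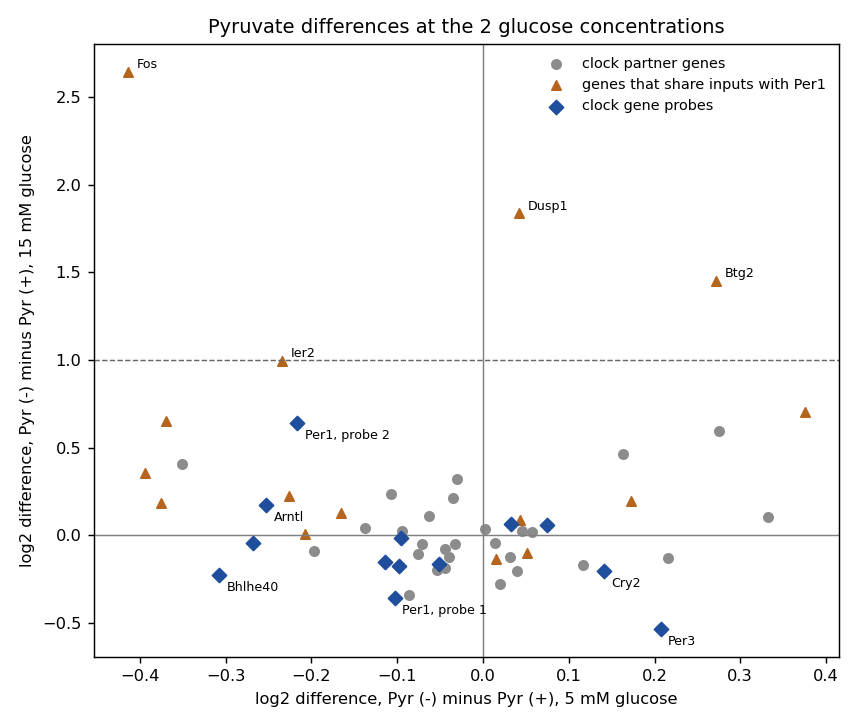
Log2 difference on removal of pyruvate at 5 mM (x axis) and at 15 mM glucose (y axis) for clock gene probes (diamonds), clock partner genes (circles, mean of a gene's probes) and genes that share inputs with Per1 (triangles, mean of a gene's probes); the dashed line marks 2-fold higher. Fos, Dusp1 and Btg2 lie above the line, Ier2 just under it, and all clock gene probes between −0.53 and 0.64 on the y axis.

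Per3, the clock gene with the widest range, was set beside the 27588 other probes measured on all arrays. The 5 nearest in centred log2 profile over the 4 arrays were Ap4e1, Retn, Gm15800, AK086046 and 4731419I09Rik, at a root mean square distance of 0.0036 to 0.0239 log2. Ap4e1 read 42.7, 47.8, 40.0 and 28.4. With only 4 arrays many profiles come this near, and nothing about function follows from it.

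The identity of the cells was checked by markers. All 15 Schwann cell markers, among them Sox10, S100b and Ngfr, had a probe well above background on all 4 arrays, as did 5 of 6 fibroblast, 6 of 6 macrophage and 3 of 5 neuron markers. Lum, Rbfox3 and Syt1 had none. Between 28470 and 30344 probes were well above background per array, and no spot was saturated.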

How the data were processed

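RNA of IMS32 cells was hybridised to Agilent Whole Mouse Genome arrays with Cy3. The files deposited by the authors come from Feature Extraction 11.5.1.1, and the processed spot intensity in them is background-corrected but not scaled across arrays. The authors also deposited the ratio of that intensity to 1 divisor per array. The settings of GeneSpring are not given in the sources used here.

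Controls and spots marked as outliers were dropped, spots of a probe were averaged as log2 intensity, and each array's 75th percentile over 39429 mouse probes was subtracted. A probe counted as measured when more than 0.5 of its spots were well above background, and differences were taken where both arrays measured it. With 1 array per condition no test was run; 2-fold and 1.5-fold served as thresholds. A gene's value is the mean over its probes. Counting was tested on simulated data. Members and lists were chosen with earlier results of these data known. Named beyond the 10 clock genes were list genes past 2-fold, the largest in each comparison, and the 5 profiles nearest Per3. Alternatives used limma 3.58.1 (R 4.3.3): other percentiles, quantile, cyclic loess, 9 of 10 spike-in probes, normexp with offset 50, the deposited ratio, other filters and the brightest probe. Probe positions are those of the files (mm9); promoter windows are from RefSeq (GRCm38.p6).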

Additional observations from a re-analysis of the deposited data

Results flagged for a closer look

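Cry2 differed on removal of pyruvate by 0.14 in 5 mM and by −0.20 in 15 mM glucose, so that the second minus the first was −0.34 on the log2 scale. It was singled out because these differences went opposite ways and each was beyond 1 SD of bright probes (1.48 and 1.21 SD). The difference between the 2 was not tested, since each condition has 1 array. By the same measure, opposite signs with both beyond 1 SD of the probe's own signal class, 1 of the 13 clock probes and 789 of 27589 probes measured on all arrays (2.86%) were found. Arntl (−0.25 and 0.17), Per3 (0.21 and −0.53) and the dim Per1 probe (−0.22 and 0.64) also had opposite signs, with wider gaps than Cry2, but 1 of their differences lay within 1 SD. With spike-in scaling the Cry2 difference at 5 mM glucose was −0.03.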

How the results depend on the processing

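Over 11 alternatives, 10 of them planned, 418 of 484 recomputed values stayed within the spread between spots or within 1.5 times the count, and 66 moved. No clock gene probe passed 2-fold under any of these alternatives, the nearest being Per3 with spike-in scaling (1.77-fold lower for glucose without pyruvate, against 1.59-fold). At 1.5-fold, 1 clock probe counted in each comparison with the [Glc 15 mM/Pyr (−)] array and none in the others. Spike-in scaling took the clock gene medians to −0.27 (pyruvate at 5 mM glucose), −0.42 (glucose with pyruvate) and −0.21 (glucose without it), while it moved the median of all probes by −0.17, −0.30 and −0.15. The direction of 18 of 408 differences and medians, fixed values included, turned. Each turned from a value of at most 0.14, and 8 of these were with spike-in scaling. The mean of Per1 turned from 0.14 to −0.36 (pyruvate at 15 mM glucose) and from 0.08 to −0.37 (glucose without pyruvate) when its dim probe was left out, an alternative added after seeing the data; the brightest probe alone gave the same values. With normexp, Per3 was −0.38 and −0.36 in these same comparisons. Counts of all probes past 2-fold, 340, 583, 273 and 676 in the order pyruvate at 5 mM, pyruvate at 15 mM, glucose with pyruvate and glucose without it, were 10, 100, 8 and 113 with normexp and 1648, 2539, 1621 and 2752 with dim probes kept. Spike-in scaling gave 431 for glucose with pyruvate. The cause of these shifts was not tested. No paired analysis was possible because each condition has 1 array, and for that reason no array could be left out either. Signal limits Per1 by its second probe, Per3 and Cry1, which lie in the dim class.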
